A study of Mus musculus with 426 samples.

Results

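Pancreatic tumour cells that carried green fluorescent protein (GFP) and the epithelial surface protein EpCAM were set against leukocytes sorted by CD45 from the same tumours of 3 mice. The sorts held 33 GFP+EpCAM+ cells and 58 CD45+ cells, 91 of the 420 single cells of the study, and the 6 bulk libraries were left out. Both groups came from C57BL/6 males aged 6 to 8 weeks when 50000 KPC1199-EGFP cells in Matrigel were placed in the pancreas, and the tumours then grew for 6 to 8 weeks. The labels name no further allele or treatment, and the cells were stained with Calcein Violet before sorting. KPC1199-EGFP is a single mouse pancreatic cancer line with enhanced GFP, whose promoter the labels do not give, so the 3 mice are 3 hosts of 1 tumour line. RNA, as cDNA amplified for 15 cycles, and DNA were read together from each cell in 76-base single reads. Exonic reads were then taken as RNA and nonexonic reads as DNA.

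EpCAM joins neighbouring epithelial cells, keratins 8 and 18 pair into the filaments of simple epithelia, and mucins coat the ducts of the pancreas. CD45, the product of Ptprc, is a tyrosine phosphatase on the surface of leukocytes, and pancreatic tumours are known to be rich in macrophages and neutrophils and to hold fewer T cells. Carcinoma cells commonly carry gained and lost chromosomes, whereas the leukocytes of the host keep a normal set.

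The RNA analysis kept cells in which 500 or more genes were read and the counts reached 10000, which were 31 GFP+EpCAM+ cells (12, 10 and 9 in mice 1 to 3) and 56 CD45+ cells (22, 20 and 14). Their counts were summed per mouse, to 22333330 to 27902633 in GFP+EpCAM+ sums and 18182127 to 35909185 in CD45+ sums. A single cell gave at most 35.1% of a GFP+EpCAM+ sum and at most 22.5% of a CD45+ sum. Levels are CPM, the counts of a gene scaled to a common total for each sum, while log2 differences also use the TMM scaling. DNA was used from cells with at least 50000 DNA reads, 27 GFP+EpCAM+ cells (10, 8 and 9) with a median of 476470 reads and 53 CD45+ cells (22, 18 and 13) with a median of 898867. Amplified reads are not independent molecules, so the floors given below cover counting error only.

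Several cells went against their label or stood apart. CD45+ cell 80 of mouse 3 had a chromosome profile like that of the GFP+EpCAM+ cells, no read on the Y chromosome and 15.2 CPM of Ptprc. Its epithelial RNA was low, with 0 CPM of Epcam and 40.4 CPM of Krt18. CD45+ cell 30 of mouse 2 held 1151 CPM of Epcam and 11700 CPM of Krt18 beside 1669 CPM of Lyz2. GFP+EpCAM+ cell 14 of mouse 2, a shallow library of 12787 counts, held 6178 CPM of Lyz2 and 15170 CPM of Cd74. The same cell had Ptprc and Tyrobp at 0 CPM, and it held 4849 CPM of Spp1 and 469 CPM of Krt18. Counts are therefore also given without these 3 cells, a choice made after seeing the data. Other CD45+ cells with epithelial RNA stayed in, so these counts are not of a cleaned group. Among them was cell 31 of mouse 1, with 400 CPM of Epcam and 2715 CPM of Krt18 beside 350 CPM of Ptprc and 1151 CPM of Lyz2.

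The genes behind the sorts separated the groups in every mouse. Epcam had 1031, 1215 and 561 CPM in GFP+EpCAM+ sums of mice 1 to 3, against 9.53, 70.6 and 16.9 CPM in CD45+ sums. Ptprc had 5.81, 0.609 and 5.82 CPM in GFP+EpCAM+ sums, against 378, 160 and 461 CPM in CD45+ sums. Neither gene overlapped between the groups. Epcam passed the test (log2 difference 5.02 ± 1.27 SE, edgeR quasi-likelihood adjusted p = 0.0391), and Ptprc did not (-6.01 ± 1.71, adjusted p = 0.0619, and 0.0469 without the 3 cells). Without the largest cell of each sum Epcam had an adjusted p of 0.0617, and without a mouse it had 0.104 to 0.247. At 100 CPM or more, Epcam was read in 20 of 31 GFP+EpCAM+ cells and in 9 of 56 CD45+ cells, and cell 30 of mouse 2 gave 76.0% of the Epcam counts of the CD45+ sort. In sums, fewer cells of a type and less RNA per cell cannot be told apart.

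Of 19703 genes tested, 333 were called at an adjusted p under 0.05 (1.69%), of which 100 were higher (0.508%) and 233 lower (1.18%). With mouse as a block 120 were higher (0.609%) and 201 lower (1.02%). Without the 3 cells that stood apart, 250 were higher (1.27%) and 313 lower (1.59%), with 332 of the 333 genes shared. The median log2 difference over all genes was -0.52, and it was -1.24 when sums were scaled by their totals alone. Each list below is set beside that median, and its calls beside the shares above. That median includes many low genes. Among genes with a mean of at least 10 CPM, the medians by autosome ran from 0.58 to 2.42. Leaving out mouse 3 left 13 calls: Clu, F3 and Spp1 higher, and Lyz2, Fcgr3, Ccl3, Il1b, Il1r2, C5ar1, Clec4n, Lilr4b, Lilrb4a and Mmp12 lower. Without mouse 1 there were 213 calls and without mouse 2 there were 85, and DESeq2 called 3331 genes. The balance of the directions depended on the weighting, with 1810 higher and 1521 lower by DESeq2, 267 higher and 178 lower with each cell weighted alike on log2(CPM+1), and 444 higher and 203 lower on log2(CPM+0.1). List medians shrank or grew with that weighting too. On log2(CPM+1) with cells alike they were 6.17 for keratins, 0.05 for mucins and trefoil factors, 0.37 for junction genes, 1.19 for lineage genes, 1.98 for defence genes and 1.72 for adhesion and invasion genes, and -5.49 for pan-leukocyte, -3.11 for macrophage, -3.34 for neutrophil, -1.23 for T and natural killer cell and -3.24 for class II genes.

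**Figure D1:**
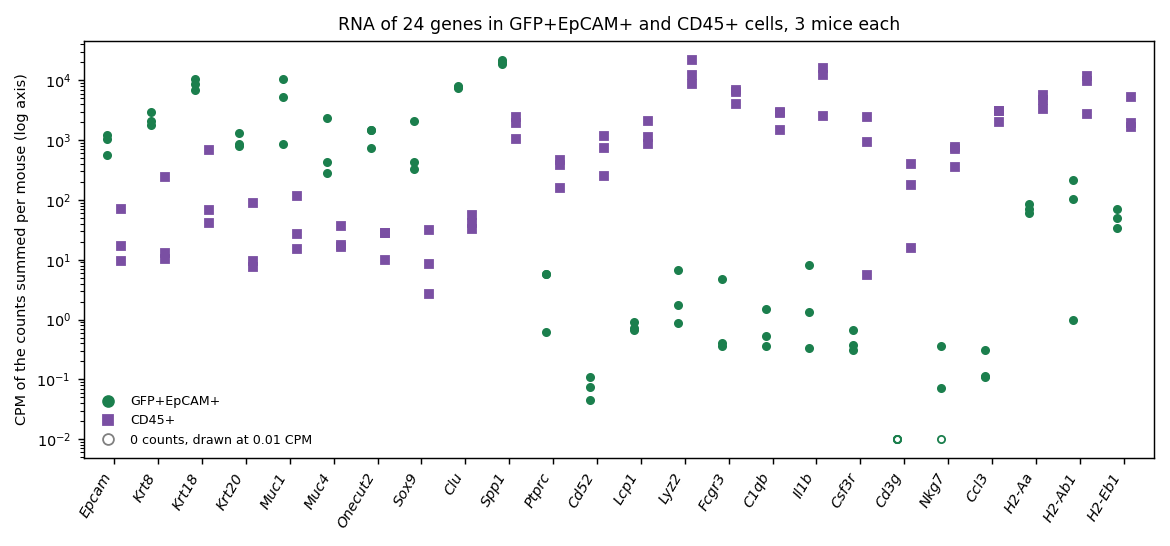
RNA of 24 genes as CPM of the counts summed per mouse, on a log axis, with GFP+EpCAM+ sums as green circles and CD45+ sums as purple squares to their right, and 1 point per mouse. Open circles at the foot mark 0 counts, as for Cd3g in all 3 GFP+EpCAM+ sums. The genes are a selection from those named in the text, and none of the 24 overlapped between the groups. Named genes that did overlap, such as Cdh1, Vim and B2m, are not drawn. Over all genes 8.44% lay wholly above and 21.7% wholly below in GFP+EpCAM+ sums.

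Keratins 8, 18 and 20 rose in GFP+EpCAM+ sums. Of 8 keratins tested of 9, 3 were called higher (0.508% of all genes were) and none lower, with a median log2 difference of 4.56. Krt18, a filament protein of simple epithelia, had 10430, 8828 and 6846 CPM in GFP+EpCAM+ sums, against 67.9, 675 and 41.1 CPM in CD45+ sums (5.19 ± 1.06, adjusted p = 0.0108). Its partner Krt8 had 2129, 2942 and 1771 CPM in GFP+EpCAM+ sums, against 13.2, 238 and 10.4 CPM in CD45+ sums (4.81 ± 1.19, adjusted p = 0.037). The high CD45+ value was that of mouse 2 for both, and cell 30 gave 89.1% of the Krt18 and 91.9% of the Krt8 counts of that sort. Krt20, a keratin of gut-type epithelium, also rose (4.93 ± 1.29, adjusted p = 0.0454), and without the largest cells the adjusted p of Krt8 was 0.0578 and that of Krt20 was 0.0588. Krt19, a duct keratin, had 486, 1202 and 1979 CPM in GFP+EpCAM+ sums, against 4.5, 352 and 11.2 CPM in CD45+ sums, and did not pass (adjusted p = 0.139). Without the 3 cells, Krt19 (adjusted p = 0.00178) and Krt7 (adjusted p = 0.000724) passed as well, which made 5 keratins.

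Muc1, a membrane mucin, had 878, 10490 and 5222 CPM in GFP+EpCAM+ sums, against 14.9, 118 and 27.3 CPM in CD45+ sums, with no overlap (6.83 ± 1.16, adjusted p = 0.00182). Muc4, another membrane mucin, had 427, 288 and 2317 CPM in GFP+EpCAM+ sums, against 37.2, 17.6 and 16.4 CPM in CD45+ sums (5.83 ± 1.41, adjusted p = 0.0341). Both varied between tumour sums, with Muc1 lowest in mouse 1 and Muc4 lowest in mouse 2. A single cell gave 44.4% of the Muc4 counts of GFP+EpCAM+ cells, and 9 of 31 cells held 100 CPM or more. The other 8 tested mucins and trefoil factors did not pass and 4 of the 10 had negative differences, the list's median being 4.88. Without mouse 3 the adjusted p was 0.0782 for Muc1 and 0.272 for Muc4, and without mouse 2 that of Muc4 was 0.0940.

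The promoters of Muc1, Muc4 and Krt20 are shown because each holds the letters TATAAA, the core of the TATA box, 23 to 30 bases before the annotated start. The sequences are from RefSeq on GRCm38.p6, with the motif in capitals.
Muc1, chr3:89228979-89229055, plus strand: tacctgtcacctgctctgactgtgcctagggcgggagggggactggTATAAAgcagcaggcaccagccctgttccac
Muc4, chr16:32735804-32735885, plus strand: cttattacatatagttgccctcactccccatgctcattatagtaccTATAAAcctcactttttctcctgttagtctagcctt
Krt20, chr11:99438154-99438228, minus strand: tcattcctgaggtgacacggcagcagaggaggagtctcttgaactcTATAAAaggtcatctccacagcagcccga
Searched on both strands from 250 bases before to 50 after the start, these letters were in 16 of 75 promoters of genes called higher (21.3%), in 32 of 173 of those called lower (18.5%) and in 1933 of 14877 of all tested genes with a promoter in the table (13%). The matches are a description of these windows.

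Junction genes were more uneven. Of 20 junction and epithelial splicing genes, 2 were called higher (Epcam and Elf3) and none lower, with a median of 2.79, and 4 passed without the 3 cells. Elf3, an epithelial transcription factor, had 730, 593 and 833 CPM in GFP+EpCAM+ sums, against 4.5, 45.7 and 5.72 CPM in CD45+ sums (5.34 ± 1.39, adjusted p = 0.0447). Cdh1, which encodes E-cadherin, had 304, 132 and 647 CPM in GFP+EpCAM+ sums, against 6.46, 28.5 and 218 CPM in CD45+ sums, and the groups overlapped (1.99 ± 1.49, adjusted p = 0.393). In this list 6 members had negative differences, among them Spint1, a protease inhibitor of epithelia, whose 605 CPM in the CD45+ sum of mouse 2 stood above every other sum of either group, which reached at most 10.7 CPM.

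Most genes of the pancreatic and foregut lineage lay higher in GFP+EpCAM+ sums. Of 17, 16 had positive differences, 13 had every GFP+EpCAM+ sum above every CD45+ sum and 5 were called higher, with a median of 5.19. Over all genes 8.44% lay wholly above in that way and 0.508% were called higher. Onecut2, a transcription factor of the developing pancreas and liver, had 1487, 1469 and 738 CPM in GFP+EpCAM+ sums, against 27.5, 27.5 and 9.85 CPM in CD45+ sums (6.37 ± 1.16, adjusted p = 0.0037). Sox9, the transcription factor of pancreatic ducts, had 330, 2123 and 440 CPM in GFP+EpCAM+ sums, against 2.68, 31 and 8.64 CPM in CD45+ sums (6.27 ± 1.44, adjusted p = 0.0252). The adhesion protein Cdh17 (7.64), the stem cell surface protein Prom1 (6.38) and the protease Ctse (5.46) rose too. Hnf4a and Gata6, factors of the classical pancreatic tumour type, did not pass: Hnf4a had 4.91, 4.91 and 302 CPM in GFP+EpCAM+ sums, against 4.79, 1.00 and 4.79 CPM in CD45+ sums. Without mouse 3 the adjusted p of the 5 called genes ran from 0.0942 to 0.224.

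Clu, Spp1 and Cp rose among the defence and acute phase genes. Clu, a secreted chaperone, had 8126, 7795 and 7343 CPM in GFP+EpCAM+ sums, against 56.2, 40.9 and 33.2 CPM in CD45+ sums (7.98 ± 0.99, adjusted p = 8.53e-05). Spp1, the matrix protein osteopontin, had 22140, 19000 and 20670 CPM in GFP+EpCAM+ sums, against 1921, 1049 and 2476 CPM in CD45+ sums (3.89 ± 0.60, adjusted p = 0.000946). Both kept an adjusted p under 0.05 without any 1 of the mice, at most 0.000912 for Clu and 0.0197 for Spp1. Spp1 is also made by macrophages, and 34 of 56 CD45+ cells held 100 CPM or more, against 30 of 31 GFP+EpCAM+ cells. Cp, the copper carrier ceruloplasmin, also rose (6.06 ± 1.54, adjusted p = 0.0401, and 0.0514 without the largest cells). Of 11 tested defence and acute phase genes these 3 were called higher and none lower, with a median of 3.63.

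F3, which encodes tissue factor, the starter of the clotting cascade, had 2566, 1543 and 448 CPM in GFP+EpCAM+ sums, against 16.5, 7.21 and 3.74 CPM in CD45+ sums (8.21 ± 1.34, adjusted p = 0.00127, and at most 0.0322 without a mouse). Plat, a plasminogen activator, also rose (5.88 ± 1.55, adjusted p = 0.0454, and 0.0553 without the largest cells) and was the single call among 20 adhesion and invasion genes, whose median was 3.96. Among chemokines and cytokines, Cxcl5, which draws neutrophils, had 842, 212 and 763 CPM in GFP+EpCAM+ sums, against 7.33, 0.306 and 2.86 CPM in CD45+ sums (8.28 ± 1.81, adjusted p = 0.0184). Its level was uneven between tumour cells, with 14 of 31 at 100 CPM or more and 1 cell giving 32.3% of the counts. Cxcl1 of the same group had 36.5, 1145 and 769 CPM in GFP+EpCAM+ sums, against 246, 105 and 7.92 CPM in CD45+ sums, and the groups overlapped (adjusted p = 0.121).

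Among the 12 largest called differences on the tumour side were genes hardly read in CD45+ sums. Tmem254c was at 79.3, 3.15 and 137 CPM in GFP+EpCAM+ sums and at 0 counts in every CD45+ sum, at least 1711-fold higher against a floor of 3 counts over the group. Hes1, a target of Notch signalling, had 37.1, 113 and 60.5 CPM in GFP+EpCAM+ sums, against 0.527, 0.139 and 0.11 CPM in CD45+ sums (8.94 ± 2.11, adjusted p = 0.0286). The other 10 were Ambp, Echdc2, Lurap1l, Rbp4, Aktip, Sectm1b, Sult1c2, Cxcl5, F3 and Clu, at 7.94 to 8.88. With mouse as a block Rbp4, the retinol carrier, had an adjusted p of 0.0507, against 0.0446 without it. Sectm1b had an adjusted p of 0.113 without the largest cells, and 1 GFP+EpCAM+ sum (mouse 2, 823 CPM) stood above the others (151 and 94.6 CPM).

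**Figure D2:**
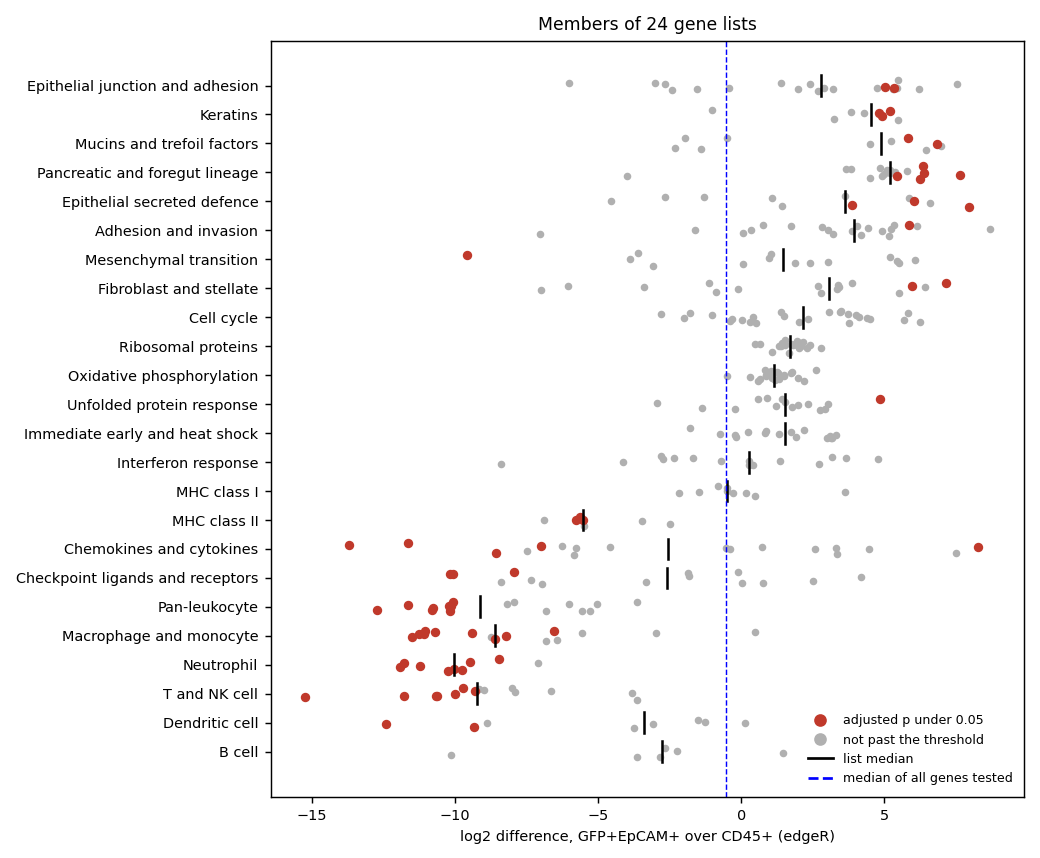
Log2 differences, GFP+EpCAM+ over CD45+, of the tested members of 24 gene lists, with 1 point per gene, red points where the adjusted p was under 0.05, a black bar at each list's median and a dashed line at the median of all genes (-0.52). Epithelial lists lie to the right and leukocyte lists to the left. Ribosomal and oxidative phosphorylation genes form tight groups to the right of the line with no call. The line covers all genes tested, and genes with a mean of at least 10 CPM had autosome medians of 0.58 to 2.42.

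On the leukocyte side, general leukocyte genes were near 0 in GFP+EpCAM+ sums. All 16 pan-leukocyte genes had every GFP+EpCAM+ sum below every CD45+ sum, as did 21.7% of all genes, and 8 were called lower, with a median of -9.14. With mouse as a block 10 were called lower, and without the 3 cells 11. Their summed level was 33.4, 83.1 and 226 CPM in GFP+EpCAM+ sums, against 15680, 14200 and 13700 CPM in CD45+ sums. Cd52, a surface antigen of leukocytes, had 0.0749, 0.108 and 0.0448 CPM in GFP+EpCAM+ sums, against 737, 1171 and 253 CPM in CD45+ sums (-12.73 ± 2.20, adjusted p = 0.00228). Lcp1, an actin bundler of leukocytes, fell as well (-10.23 ± 1.63, adjusted p = 0.00122). Tyrobp, an adaptor of myeloid and natural killer cells, was at 0, 0 and 0.448 CPM in GFP+EpCAM+ sums, against 335, 647 and 449 CPM in CD45+ sums, and was read in 2 of 31 GFP+EpCAM+ cells.

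Most macrophage genes fell. Of 15, 9 were called lower (1.18% of all genes were) and none higher, with a median of -8.60. The difference was positive for 1 of the 15, at 0.47. Cd14, a surface protein in this list, did not set the sorts apart. It was at 100 CPM or more in 24 of 31 GFP+EpCAM+ cells (median 286 CPM) and in 30 of 56 CD45+ cells (median 191 CPM). Of the same 15, 14 lay wholly below, as did 21.7% of all genes. Lyz2, the lysozyme of myeloid cells, had 0.862, 6.63 and 1.75 CPM in GFP+EpCAM+ sums, against 22170, 12530 and 8657 CPM in CD45+ sums (-11.51 ± 1.51, adjusted p = 0.000149). Fcgr3, an Fc receptor, had 0.412, 4.77 and 0.358 CPM in GFP+EpCAM+ sums, against 7007, 6489 and 4077 CPM in CD45+ sums (-11.04 ± 1.51, adjusted p = 0.000193). Both genes kept an adjusted p under 0.05 without any 1 of the mice. The complement subunits C1qa (-11.09), C1qb (-11.26) and C1qc (-10.72) fell by similar amounts, and so did the lipid carrier Apoe (-8.24). With mouse as a block the receptor Csf1r had an adjusted p of 0.0555, against 0.0447 without it.

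Of 9 tested neutrophil genes 8 were called lower (1.18% of all genes were), with a median of -10.05. The interleukin Il1b had 0.337, 1.36 and 8.06 CPM in GFP+EpCAM+ sums, against 2499, 12430 and 16300 CPM in CD45+ sums (-11.79 ± 1.97, adjusted p = 0.00145). Its decoy receptor Il1r2 had 0.187, 0.609 and 2.78 CPM in GFP+EpCAM+ sums, against 2261, 4652 and 6871 CPM in CD45+ sums (-11.94 ± 1.73, adjusted p = 0.000484). The CD45+ sum of mouse 1 was the lowest of its group for both. That mouse stood apart more widely for Csf3r, the receptor of the neutrophil growth factor, which had 0.375, 0.681 and 0.313 CPM in GFP+EpCAM+ sums, against 5.46, 2472 and 946 CPM in CD45+ sums (-11.22, adjusted p = 0.0032). A single cell gave 69.3% of the Csf3r counts of the CD45+ sort.

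T and natural killer cell genes came from few cells. Of 14 tested of 16, 7 were called lower (1.18% of all genes were), 5 with mouse as a block, with a median of -9.24. Cd3g, a chain of the T cell receptor complex, was at 0 counts in every GFP+EpCAM+ sum and at 397, 176 and 15.8 CPM in CD45+ sums, at least 5093-fold lower against a floor of 3 counts over the group. It was read in none of the 31 GFP+EpCAM+ cells and in 15 of 56 CD45+ cells, 5 of them at 100 CPM or more. Nkg7, a granule protein of cytotoxic cells, had 0, 0.0717 and 0.358 CPM in GFP+EpCAM+ sums, against 722, 761 and 352 CPM in CD45+ sums (-11.80 ± 2.05, adjusted p = 0.0023). Cd2, a T cell adhesion protein, was called (adjusted p = 0.0203) although the CD45+ sum of mouse 2, at 0.111 CPM, lay below all 3 GFP+EpCAM+ sums of 0.134 to 0.375 CPM. Gzmb, a granule protease, and the chemokine Ccl5 were the members no longer called under the block, with adjusted p of 0.0513 and 0.0504. None of 6 tested B cell genes passed (1 without the 3 cells, lower), and their median was -2.76. Of 8 dendritic cell genes Ccr7 and Itgax were called lower (1 under the block), with a median of -3.41. Markers of other cells of the pancreas were few in both sorts. None of the tested acinar (7), islet (1), endothelial (9), mesothelial (5) and erythroid (3) genes passed, and no such list summed to more than 286 CPM in a GFP+EpCAM+ sum, a mesothelial value of mouse 2, or 112 CPM in a CD45+ sum, an acinar value of mouse 2.

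Several of the largest differences rested on 1 or 2 CD45+ sums. Ppbp, a platelet chemokine, had 0.0375, 0 and 0.313 CPM in GFP+EpCAM+ sums, against 1.96, 0.167 and 4685 CPM in CD45+ sums, and a single cell of mouse 3 gave 99.9% of the CD45+ counts. Ccr7, the lymph node homing receptor, had 1761 CPM in the CD45+ sum of mouse 3 and at most 1.48 CPM in the others, and a single cell gave 99.0% of the CD45+ counts. Its adjusted p was 0.0211, but 0.101 with mouse as a block and 0.601 without mouse 3. Fcgr4 rested on mouse 2 in the same way (1976 CPM, against at most 6.05 CPM in the CD45+ sums of mice 1 and 3), and Tnfrsf4, a receptor of activated T cells, on mouse 1 (3077 CPM, against at most 1.60 CPM in the CD45+ sums of mice 2 and 3). Tnfrsf4 had an adjusted p of 0.109 without mouse 1 and Fcgr4 one of 0.159 without mouse 2. Rgs18, at 0 counts in GFP+EpCAM+ sums and at least 409-fold lower against the same floor, had an adjusted p of 0.0754 under the block.

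In the promoters of the genes called lower, the letters GAGGAAGT, a sequence of the type bound by PU.1, the regulator of the myeloid lineage, were in 25 of 173 (14.5%), against 5 of 75 of those called higher (6.67%) and 538 of 14877 of all tested (3.62%). The shorter letters GGAAGT, the core of the ETS family, which lie within the longer motif, were in 51.4% of promoters of genes called lower, in 28% of those called higher and in 28.9% of all tested. The letters CCGCCC, a GC box, ran the other way, with 27.7%, 60% and 53.9%. Both strands were searched, and the motifs were chosen after the gene values were seen. Windows of 3 genes called lower are shown from RefSeq on GRCm38.p6, where the capitals mark the longer motif on the opposite strand, so that it reads ACTTCCTC.
Fcgr4, chr1:171018856-171018925, plus strand: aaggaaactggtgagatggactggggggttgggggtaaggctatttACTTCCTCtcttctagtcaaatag
C1qc, chr4:136893056-136893155, minus strand: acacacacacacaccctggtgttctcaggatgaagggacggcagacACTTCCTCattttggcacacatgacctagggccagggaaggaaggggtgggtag
S100a8, chr3:90668853-90668952, plus strand: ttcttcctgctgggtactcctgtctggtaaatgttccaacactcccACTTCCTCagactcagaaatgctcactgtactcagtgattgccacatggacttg

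The calls among antigen presentation genes split by class. All 7 class II genes were wholly below in GFP+EpCAM+ sums, as were 21.7% of all genes. Of the 7, 3 were called lower (1.18% of all genes were), 4 with mouse as a block and 4 without the 3 cells, with a median of -5.54. H2-Aa, a class II alpha chain, had 71.8, 60.7 and 84.7 CPM in GFP+EpCAM+ sums, against 5796, 4638 and 3358 CPM in CD45+ sums (-5.54 ± 1.26, adjusted p = 0.024). The beta chain H2-Eb1 had 34, 49.5 and 71.7 CPM in GFP+EpCAM+ sums, against 1916, 5245 and 1680 CPM in CD45+ sums (-5.65 ± 1.29, adjusted p = 0.0245). H2-Ab1 fell too (-5.78 ± 1.33, adjusted p = 0.0246), while Cd74, the invariant chain, had 989, 836 and 632 CPM in GFP+EpCAM+ sums, against 15560, 16020 and 6530 CPM in CD45+ sums, and did not pass (-3.46 ± 1.23, adjusted p = 0.112). Without mouse 2 or mouse 3 the 3 called genes had adjusted p between 0.0559 and 0.224. Class I genes did not pass in either direction, with a median of -0.49, close to that of all genes tested (-0.52). It lay below the autosome medians of genes with a mean of at least 10 CPM (0.58 to 2.42). The list summed to 7019, 5898 and 8433 CPM in GFP+EpCAM+ sums, against 15930, 15070 and 10780 CPM in CD45+ sums. B2m, the light chain of class I, had 4978, 4030 and 5069 CPM in GFP+EpCAM+ sums, against 11030, 8984 and 4203 CPM in CD45+ sums, and the groups overlapped (-0.27 ± 0.69, adjusted p = 0.808).

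The promoters of 2 of the class II genes are shown because both hold the letters CTGATTGG of the Y box, which is known to work with the X box in class II promoters. They are from RefSeq on GRCm38.p6, with the motif in capitals.
H2-Eb1, chr17:34305759-34305858, plus strand: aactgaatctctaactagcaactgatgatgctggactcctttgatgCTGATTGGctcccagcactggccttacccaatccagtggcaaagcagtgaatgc
H2-Aa, chr17:34287824-34287920, minus strand: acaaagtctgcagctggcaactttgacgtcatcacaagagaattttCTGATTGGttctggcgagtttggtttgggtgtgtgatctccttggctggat
The same letters were in 5 of 173 promoters of genes called lower (2.89%), in 3 of 75 of those called higher (4%) and in 5.63% of all tested.

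Chemokines and cytokines held calls in both directions. Of 18 chemokines and cytokines, 4 were called lower (Ccl3, Ccl4, Ccl6 and Ccl9) and 1 higher (Cxcl5), with 6 lower under the block, and the median was -2.56. Over all genes 1.18% were called lower and 0.508% higher. Ccl3, a chemokine of macrophages and neutrophils, had 0.112, 0.108 and 0.313 CPM in GFP+EpCAM+ sums, against 2041, 3043 and 3040 CPM in CD45+ sums (-13.71 ± 1.72, adjusted p = 8.53e-05, and at most 0.00944 without a mouse). Of 14 checkpoint ligands and receptors 3 were called lower, beside the same share of all genes. The costimulators Cd86 (-10.08 ± 2.01, adjusted p = 0.00866) and Cd80 (-10.19 ± 2.29, adjusted p = 0.022) were among them. The third was Cd274, which encodes PD-L1, at 2.70, 1.11 and 0.448 CPM in GFP+EpCAM+ sums, against 1618, 406 and 169 CPM in CD45+ sums (-7.95 ± 1.83, adjusted p = 0.0252). Single cells gave 62.5% of the Cd274, 51.9% of the Cd86 and 43.9% of the Cd80 counts of the CD45+ sort. Cd274 was at 100 CPM or more in 12 of 56 CD45+ cells. Cd47, the signal that restrains uptake by macrophages, had 390, 393 and 388 CPM in GFP+EpCAM+ sums, against 450, 128 and 405 CPM in CD45+ sums, and did not pass (0.78 ± 1.06, adjusted p = 0.634).

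Lists of housekeeping, cell cycle, stress response, interferon and tumour genotype genes had positive medians with TMM scaling and hardly any call. None of these medians lay above the range of autosome medians of genes with a mean of at least 10 CPM (0.58 to 2.42). All 24 ribosomal protein genes had positive differences of 0.47 to 2.78, with a median of 1.71, or 1.30 without TMM scaling. In 18 of them every GFP+EpCAM+ sum lay above every CD45+ sum, as in 8.44% of all genes. None of the 24 was called. Rpl3 had 229, 369 and 217 CPM in GFP+EpCAM+ sums, against 105, 62.9 and 59.4 CPM in CD45+ sums (2.41 ± 1.16, adjusted p = 0.205). The RNA counts per cell differed too, with medians of 2093406 in GFP+EpCAM+ cells and 784903 in CD45+ cells, and their part in these values was not tested. Of 22 oxidative phosphorylation genes 21 had positive differences and none passed (median 1.13). Of 26 cell cycle genes none passed (median 2.17). Of 15 unfolded protein genes 1 passed, the stress transcription factor Atf3, with 638, 1308 and 2110 CPM in GFP+EpCAM+ sums, against 200, 56.3 and 10.2 CPM in CD45+ sums (4.85 ± 1.09, adjusted p = 0.023). The median of the 15 interferon response genes was 0.28 and turned to -0.92 without TMM scaling, and none passed (1 without the 3 cells, higher). None of 16 hypoxia and glycolysis genes passed (median 0.51), nor did any of 16 immediate early genes (median 1.53, and 1 higher under the block) or of 10 genes of the tumour genotype list (median 0.66).

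**Figure D3:**
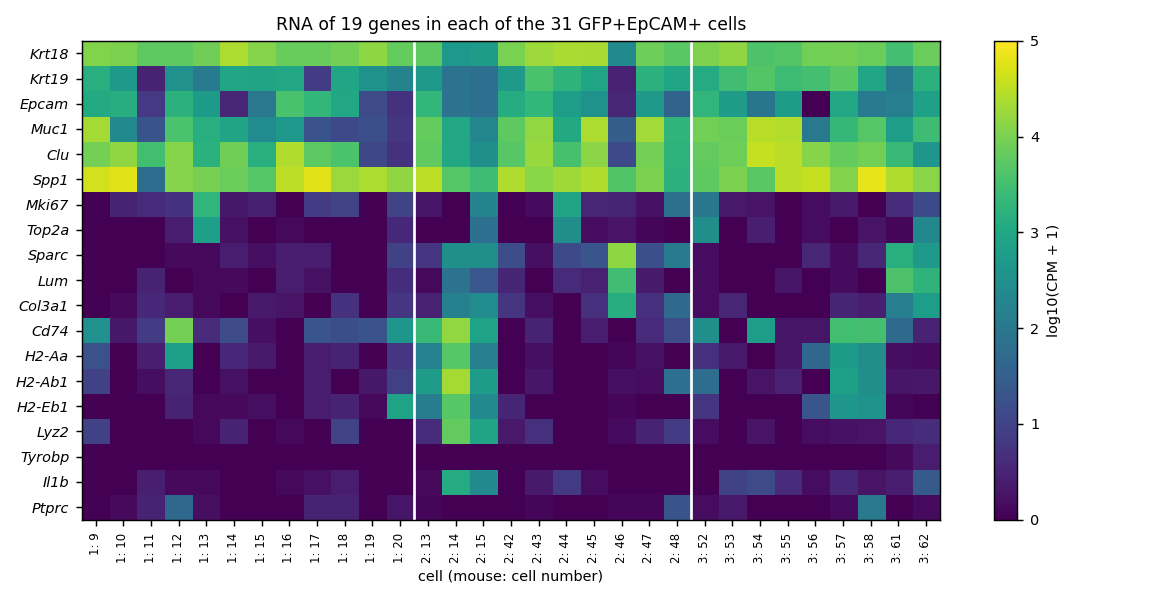
RNA of 19 genes (rows) in each of the 31 GFP+EpCAM+ cells (columns, numbered by mouse and cell), as log10(CPM + 1), with white lines between mice. Krt18 is high in nearly every column, whereas matrix genes, class II genes and Mki67 are high in a few columns each.

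Within the GFP+EpCAM+ sort some genes were read in nearly all cells and others in few. Krt18 was at 246 to 24080 CPM in all 31 cells, and Spp1 was at 100 CPM or more in 30. Epcam RNA was under 20 CPM in cells 11, 14, 19 and 20 of mouse 1, cell 46 of mouse 2 and cell 56 of mouse 3, of which cell 14 held 24080 CPM of Krt18. Mki67, a protein of dividing cells, was at 1950 CPM in cell 13 of mouse 1 and 820 CPM in cell 44 of mouse 2, and its median over the 31 cells was 1.79 CPM. The sums therefore follow few cells for some genes, and 90.6% of the Mki67 counts of the sort came from 1 cell.

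Genes of matrix proteins that fibroblasts make were called from few tumour cells. Of 16 fibroblast and stellate genes, Lum and Sparc were called higher and none lower, with a median of 3.06, and 3 higher and 1 lower under the block. The median was -0.45 when each cell was weighted alike. Lum, the matrix proteoglycan lumican, had 0.6, 507 and 1460 CPM in GFP+EpCAM+ sums, against 2.49, 4.6 and 6.88 CPM in CD45+ sums (7.15 ± 1.75, adjusted p = 0.0349). Sparc, a secreted matrix protein, had 0.899, 2425 and 482 CPM in GFP+EpCAM+ sums, against 8.95, 24.7 and 22.1 CPM in CD45+ sums (5.98 ± 1.59, adjusted p = 0.0473). In mouse 1 both were lower in the GFP+EpCAM+ sum than in the CD45+ sum, and the difference of Sparc was -0.67 with cells weighted alike. Cell 46 of mouse 2 held 14120 CPM of Sparc and 2959 CPM of Lum beside 246 CPM of Krt18 and 2.51 CPM of Epcam, and it gave 85.9% of the Sparc counts of the sort. Cells 61 and 62 of mouse 3 held 3945 and 1785 CPM of Lum beside 3154 and 7348 CPM of Krt18. All 3 cells resembled the chromosome profile of the sort, with correlations over the 19 autosomes of 0.84, 0.77 and 0.77 with the mean of the other GFP+EpCAM+ cells. They differed from it on chromosome 18, with log2 coverage of -0.24, -0.20 and -0.24, the only 3 of 27 cells below -0.2 (median 0.21). Their X coverage was -0.730, -1.255 and -1.221, against a median of -0.43 in the sort. Their Y bins held 2, 2 and 6 reads, and such bins were nearly empty in 11 of 27 cells of the sort. Among 14 genes of mesenchymal transition 1 passed, Tgfbi, lower (-9.58 ± 1.86, adjusted p = 0.00703). Vim, the filament protein of mesenchymal cells and leukocytes, had 583, 257 and 1009 CPM in GFP+EpCAM+ sums, against 259, 381 and 406 CPM in CD45+ sums, and the groups overlapped (adjusted p = 0.525).

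Cd74 RNA in the tumour sort was high in a few cells, most of which had Lyz2 and Tyrobp near 0. It was at 8894 CPM in cell 12 of mouse 1, at 2356 CPM in cell 13 of mouse 2, and at 607, 3131 and 3400 CPM in cells 54, 57 and 58 of mouse 3. Lyz2 was at 0 to 3.37 CPM and Tyrobp at 0 in these 5 cells. Ptprc went the other way in 2 of them, at 48.8 CPM in cell 12 of mouse 1 and 99.9 CPM in cell 58 of mouse 3, the highest values of the 31 cells. The class II chain H2-Aa was at 654 CPM in cell 12 of mouse 1, at 165 CPM in cell 13 of mouse 2, at 538 and 298 CPM in cells 57 and 58 of mouse 3, and at 0 in cell 54. Their correlations with the chromosome profile were 0.83, 0.87, 0.72, 0.93 and 0.87. Cell 20 of mouse 1 held 783 CPM of H2-Eb1, with Lyz2 and Tyrobp at 0 and a correlation of 0.85. Cells 14 and 15 of mouse 2, both shallow, held 15170 and 797 CPM of Cd74 beside 6178 and 819 CPM of Lyz2, the first with DNA under the minimum of reads and the second with a correlation of 0.68.

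Of the 14 autosomes called different between GFP+EpCAM+ and CD45+ cells, 13 differed in the same direction in all 3 mice. Coverage is the log2 of a cell's reads per bin on a chromosome relative to its mean over autosomal bins, averaged over the cells of a mouse, so that 0 is the cell's own autosomal mean and a gain of some chromosomes lowers the rest. Of 19 autosomes 14 were called at an adjusted p under 0.05 (73.7%), 7 higher and 7 lower (36.8% each), by a limma fit over the autosomes. With mouse as a block 13 were called, chromosome 19 no longer among them (adjusted p = 0.0936). Without the 3 cells 15 were called, with chromosome 2 added (adjusted p = 0.0414). Without a mouse 9 to 13 were called, and none was when a chromosome's value was the median of its bins in place of its reads. Set relative to the median autosomal bin, an alternative added after seeing the data, such medians gave 16 calls. The smallest p that an exact permutation test of 3 against 3 mice can give is 0.1, two-sided, and chromosomes with no overlap between the groups gave that value.

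Chromosome 3 was the largest gain, at 0.57, 0.47 and 0.39 in GFP+EpCAM+ cells of mice 1 to 3, against -0.01, -0.13 and -0.02 in CD45+ cells (difference 0.53 ± 0.06, adjusted p = 2.59e-07). It was above 0 in 27 of 27 GFP+EpCAM+ cells and in 18 of 53 CD45+ cells. Chromosomes 18 (0.21), 17 (0.19), 19 (0.17), 15 (0.17), 5 (0.15) and 8 (0.13) were the other calls on the higher side. On chromosome 19 the GFP+EpCAM+ value of mouse 2 (0.21) was below the CD45+ value of that mouse (0.25), and none of these chromosomes was above 0 in all 27 cells. Chromosome 4 was at -0.39, -0.43 and -0.43 in GFP+EpCAM+ cells, against 0.01, -0.10 and -0.05 in CD45+ cells (-0.37 ± 0.05, adjusted p = 3.59e-06). Chromosomes 9 (-0.37), 7 (-0.36), 10 (-0.35), 14 (-0.34), 12 (-0.32) and 13 (-0.31) made up the lower side. Chromosomes 4, 7, 9, 10, 13 and 14 were below 0 in 27 of 27 GFP+EpCAM+ cells, and chromosome 12 in 23 of 27. In the same order they were below 0 in 30, 22, 19, 35, 19 and 37 of 53 CD45+ cells, and chromosome 12 in 28. Each of chromosomes 4, 7, 9, 10, 13 and 14 was below -0.2 in 24 to 27 GFP+EpCAM+ cells and in 3 to 8 CD45+ cells. Chromosomes 1, 2, 6, 11 and 16 did not pass.

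**Figure D4:**
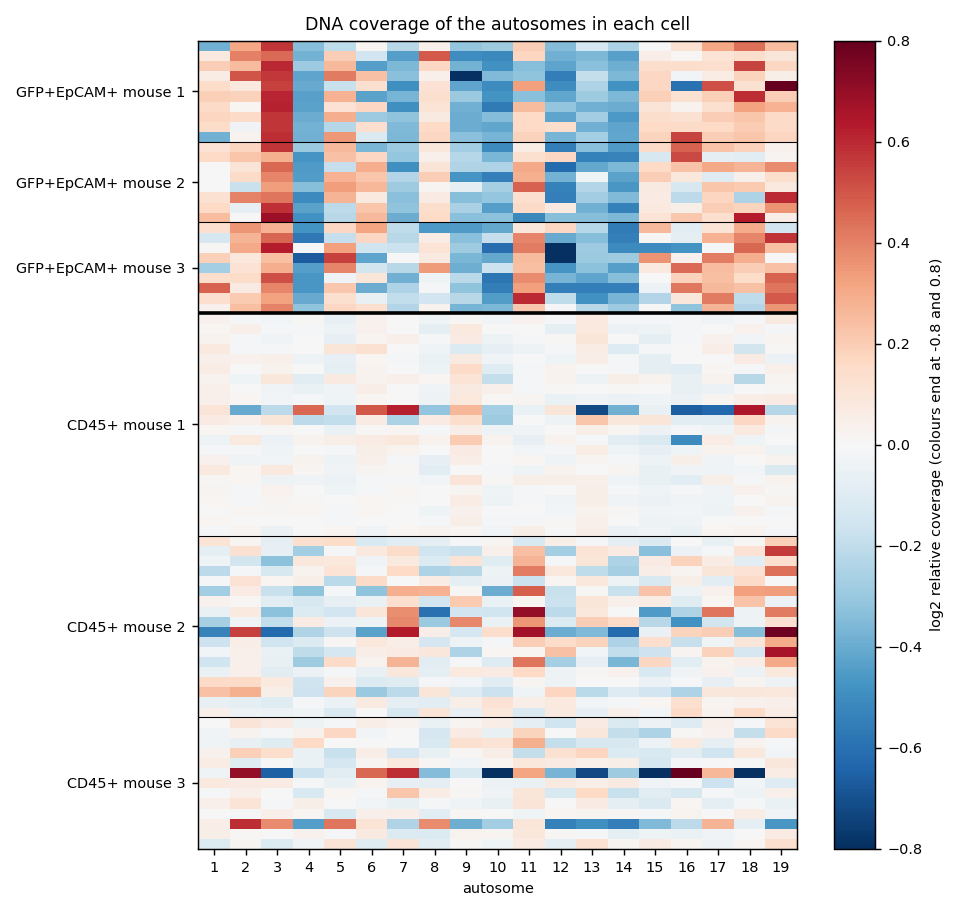
Relative DNA coverage of the 19 autosomes (columns) in each of 27 GFP+EpCAM+ cells and 53 CD45+ cells (rows, GFP+EpCAM+ above the thick line), on a log2 scale with colours ending at -0.8 and 0.8. Chromosome 3 is red and chromosomes 4, 7, 9, 10, 13 and 14 are blue in the GFP+EpCAM+ rows, and most CD45+ rows are pale.

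The profile was shared cell by cell. The correlation of a cell's 19 autosomes with the mean of the other GFP+EpCAM+ cells was 0.65 to 0.96 in the 27 GFP+EpCAM+ cells (median 0.83) and -0.42 to 0.70 in the 53 CD45+ cells (median -0.03). The highest CD45+ value, 0.70, was that of cell 80 of mouse 3, and the next was 0.51. The spread over autosomes within a cell was 0.348, 0.320 and 0.343 (SD, mean per mouse) in GFP+EpCAM+ cells, against 0.0679, 0.176 and 0.146 in CD45+ cells, a difference of 0.207 with no overlap (exact permutation p = 0.1, two-sided). Some chromosomes that did not pass varied between tumour cells. Chromosome 11 ran from -0.52 to 0.60 and chromosome 16 from -0.59 to 0.54 over the 27 cells.

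The difference of chromosome 5 lay at its start. Of 4730 autosomal bins, 196 were called (4.14%), of which 125 were called higher (2.64%) and 71 lower (1.5%), and the first 19 bins of chromosome 5 (chr5:1-14159645, mm9) were all called higher in a row. Without mouse 2 or mouse 3 the count of bins fell to 26 and 74, and it was 750 in cells with at least 200000 reads. The balance of the directions was not stable, with 109 bins higher and 123 lower with mouse as a block, 146 higher and 160 lower at 10000 reads, and 176 higher and 574 lower at 200000 reads. Over the first 19 bins of chromosome 5 the GFP+EpCAM+ cells averaged 1.5, 1.53 and 1.45 in mice 1 to 3, against -0.02, -0.04 and -0.02 in CD45+ cells. All 27 GFP+EpCAM+ cells were at 0.91 or more, and 26 were above 1. Of 53 CD45+ cells 2 were above 1, which were cell 80 of mouse 3 (1.96) and cell 33 of mouse 2 (1.17), the second with 217 CPM of Epcam and 545 CPM of Krt18 beside 1081 CPM of Lyz2. The rest of chromosome 5 averaged -0.04, -0.09 and 0.04 in GFP+EpCAM+ cells, against -0.04, -0.02 and -0.00 in CD45+ cells. That average hid a split in the tumour cells, of which 8 of 27 were below -0.2 and 13 above 0.1, both kinds being present in each mouse. The stretch was singled out after its values were seen, so no test of it as a whole is given.

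Outside that stretch most called bins stood alone. Of the other 106 bins called higher, 17 had a neighbour called the same way, and 34 lay on chromosome 3. Of the 71 bins called lower, 8 had such a neighbour. In 54 of those 71 bins the CD45+ mean was above 0.2, and the median over the 71 bins was -0.61 in GFP+EpCAM+ cells and 0.34 in CD45+ cells. The bin with the lowest difference (chr4:8629491-9084829, mm9) was at -0.27, -0.84 and -1.04 in GFP+EpCAM+ cells, against 0.72, 0.76 and 1.72 in CD45+ cells. Over the 7 chromosomes called lower, the CD45+ values per mouse lay between -0.12 and 0.12. In the mixed library, reads of RNA that fall outside exons are counted as DNA, and their part in these single bins was not tested.

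The sex chromosomes also differed. X coverage was -0.487, -0.545 and -0.601 in GFP+EpCAM+ cells, against -1.01, -1.03 and -1 in CD45+ cells, a difference of 0.470 with no overlap (exact permutation p = 0.1, two-sided). A value of -1 is that of 1 X beside paired autosomes. The Y bins were nearly empty, with a log2 coverage under -5, in 11 of 27 GFP+EpCAM+ cells (3, 3 and 5 in mice 1 to 3), and in the other 16 the lowest value was -2.69. Among 53 CD45+ cells the 1 with no Y read was cell 80 of mouse 3. Y coverage rests on 3 bins.

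RNA and DNA differences ran in parallel over chromosomes. Among 7199 genes with a mean of at least 10 CPM and a RefSeq autosome, the median RNA difference was 2.42 on chromosome 3, the highest of the 19 autosomes, and 0.58 on chromosome 7, the lowest. Of the 7 chromosomes with lower coverage, 6 held the 6 lowest RNA medians, and the other was chromosome 12 at 1.47. Over the 19 autosomes Pearson's r was 0.83 and Spearman's rho 0.73, given as a description. The points share libraries, and reads of the genome that fall in exons are counted as RNA in a mixed library. Likewise, reads of RNA that fall outside exons are counted as DNA. Their part in this relation was not tested.

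**Figure D5:**
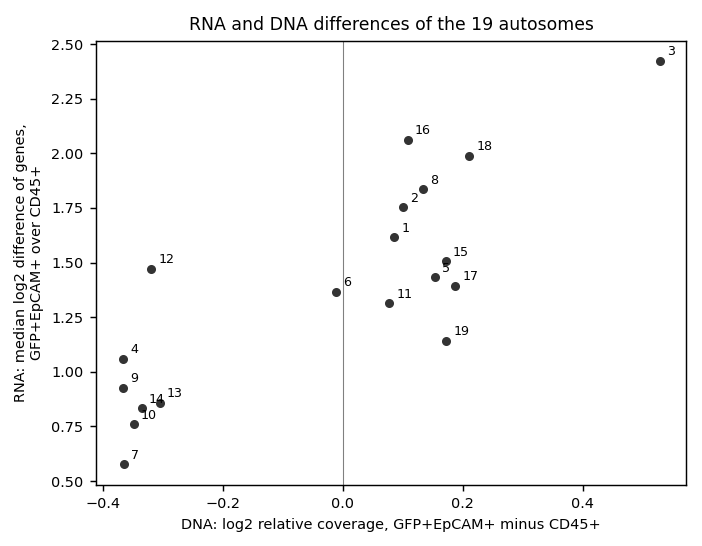
Median RNA log2 difference of the genes of each autosome (vertical axis) against its DNA coverage difference (horizontal axis), both GFP+EpCAM+ over CD45+, with 1 labelled point per autosome. Chromosome 3 lies at the upper right (0.53 and 2.42), and chromosomes 4, 7, 9, 10, 13 and 14 lie at the lower left.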

How the data were processed

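Both sorts of primary tumour cells came from the same 3 mice, and RNA and DNA were measured in single cells. The authors deposited expected counts per gene (97.4% whole numbers) and DNA counts in 5000 genomic bins (4730 autosomal). The submitters' processing notes name STAR, kallisto, Bowtie 1.0 and the build mm9 with no role for each. Per the series' design text, exonic reads of the mixed library became RNA and nonexonic reads DNA. The fits left out 92 ERCC rows, which held 0.000348% of the counts, and 4 rows whose symbols were repeated.

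Kept cells were summed per mouse and rounded to whole numbers. After edgeR's default filter and TMM scaling, the quasi-likelihood test of edgeR 4.0.16 (R 4.3.3) was run in 1 fit over all sorts of the primary tumour, with Benjamini-Hochberg adjustment at 0.05. DNA coverage was averaged per mouse and tested with limma 3.58.1. The mouse was the replicate, and no doublet caller was run. Among pairs of libraries of the same sort and mouse, none agreed within sampling noise (lowest chi-square per degree of freedom 2.44). Scripts were tested on simulated data. Alternatives included DESeq2 1.42.0, other scalings and filters, cells weighted alike, and leaving out a mouse. Sums of the same mouse come from the same animal, and their deviations from the group means correlated at 0.208, 0.034 and 0.048, so a fit with mouse as a block was an alternative.

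Named genes were Epcam, Ptprc, Krt19, Vim and Muc1, in each direction the 12 called genes with the largest difference, a mean of at least 10 CPM and the same direction in 3 mice (no predicted or Y-linked genes), and up to 4 members of each list with the smallest p. Other genes were named after their values were seen. The members and lists were chosen with earlier results of these data known. Promoters were matched by symbol for 14877 of 19703 tested genes.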

Additional observations from a re-analysis of the deposited data

How the results depend on the processing

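The count of 333 genes moved to 3331 with DESeq2, 502 without TMM scaling, 647 with cells weighted alike on log2(CPM+0.1), 563 without the 3 cells that stood apart, and 13 to 213 without a mouse. With mouse as a replicate block it was 321, of which 264 were shared. The block ended the calls of Rbp4, Csf1r, Gzmb, Ccl5, Ccr7, Rgs18 and chromosome 19, moved the list counts given above, and changed no other call of the genes and chromosomes named here. Over the 84 named genes and the alternatives run, 1058 values kept their direction and side of the threshold, 27 gained the call, 216 lost it and 7 reversed. Those reversals were Sparc at -0.67 and -1.34 with cells weighted alike on log2(CPM+1) and log2(CPM+0.1), Vim at -0.01 and Cd47 at -0.46 with a filter of 10 CPM, B2m at 0.00 with cells weighted alike on log2(CPM+0.1) and -0.78 to 0.26 without a mouse, and Spint1 at -9.60 to 3.30 without a mouse.

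The 14 chromosomes became 0 with medians over bins (16 when set relative to the median autosomal bin, added after seeing the data) and 9 to 13 without a mouse. Chromosome 5 was -0.10 with medians over bins. Chromosome 11 was -0.01 to 0.15 without a mouse and -0.06 with medians over bins. Chromosome 6 was -0.11 to 0.04 without a mouse, 0.00 and 0.05 at 10000 and 200000 reads, 0.02 with relative medians and 0.03 with medians over cells. The 196 bins became 306 at 10000 reads, 750 at 200000 and 26 to 194 without a mouse. The causes were not tested. Spread over autosomes and X coverage kept their direction in the alternatives run for them. With 3 mice and a few large cells in each sum, a gene at 0 counts is bounded by 3 counts over the group, and differences of low genes are the least precise.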
